A study of Mus musculus with 10 samples.

Results

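The SLC25 genes encode the mitochondrial carriers, membrane proteins that move nucleotides, phosphate, amino acids, carboxylates, cofactors and iron across the inner mitochondrial membrane. Members were all genes on either of 2 Affymetrix array designs whose symbol is Slc25a followed by a number. They came to 44 of the 18193 genes read, measured by 93 probe sets that name 1 gene each. Of the 44, 31 were read from the first design and 13 from the second. A signal above the background floor was found in at least 1 group for 43 members and in every group for 31. Slc25a41 was below the floor in all groups.

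By its title the study screened for genes that act in segregating chromosomes during meiosis I, and it used male C57BL/6 mice from a breeder, with no allele, transgene or drug named in the labels. Its 5 groups were Percoll fraction 2 of testes at day 8, enriched in spermatogonia, fraction 5 at day 12, enriched in leptotene and zygotene spermatocytes, fraction 8 at day 15, enriched in pachytene spermatocytes, whole testis at day 15, and a mix of 11 somatic tissues at day 15. The mix held liver, kidney, spleen, lung, brain and skin, heart and other muscle, and stomach, intestine and colon. The fractions came from testes broken up with hyaluronidase, trypsin and collagenase. How many animals were pooled is not given in the labels.

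Carriers of this family share a fold of repeated membrane-spanning modules and are made in the cytosol, then passed through the outer membrane and inserted into the inner one. The ADP/ATP carriers export the ATP that respiration makes and bring ADP back. Mouse tissues use Slc25a4, abundant in heart and muscle, and the X-linked Slc25a5, while Slc25a31 is a germ cell ADP/ATP carrier needed for male meiosis. The X chromosome is silenced in pachytene spermatocytes, and several metabolic enzymes with X-linked genes have autosomal copies that are used in the germ line.

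The promoters of the 3 ADP/ATP carriers and of Slc25a54, whose signal differed most within its role group between fractions, are shown because the carriers of 1 substrate had different patterns over the groups. Each window runs 5′ to 3′ on the gene's strand from 250 bases before to 50 bases after the transcription start (RefSeq, GRCm38.p6). Capitals in the promoters of Slc25a31 and Slc25a5 mark the E2F core GCGGGA, found on the opposite strand. Capitals in that of Slc25a54 mark a match to the MYB motif AACTGNC, also on the opposite strand. The promoter of Slc25a4 has neither.
Slc25a31, chr3:40708621-40708920, + strand: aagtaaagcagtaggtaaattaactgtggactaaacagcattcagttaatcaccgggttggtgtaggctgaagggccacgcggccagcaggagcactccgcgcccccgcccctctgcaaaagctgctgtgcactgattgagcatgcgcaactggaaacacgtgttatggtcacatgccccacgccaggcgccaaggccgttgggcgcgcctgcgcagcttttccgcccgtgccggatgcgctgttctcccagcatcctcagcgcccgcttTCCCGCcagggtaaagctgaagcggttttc
Slc25a5, chrX:36795347-36795646, + strand: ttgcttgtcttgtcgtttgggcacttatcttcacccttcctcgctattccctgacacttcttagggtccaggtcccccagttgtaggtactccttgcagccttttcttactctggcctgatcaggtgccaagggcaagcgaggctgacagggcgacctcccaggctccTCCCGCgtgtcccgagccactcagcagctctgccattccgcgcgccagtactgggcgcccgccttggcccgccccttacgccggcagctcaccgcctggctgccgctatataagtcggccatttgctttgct
Slc25a4, chr8:46211013-46211312, - strand: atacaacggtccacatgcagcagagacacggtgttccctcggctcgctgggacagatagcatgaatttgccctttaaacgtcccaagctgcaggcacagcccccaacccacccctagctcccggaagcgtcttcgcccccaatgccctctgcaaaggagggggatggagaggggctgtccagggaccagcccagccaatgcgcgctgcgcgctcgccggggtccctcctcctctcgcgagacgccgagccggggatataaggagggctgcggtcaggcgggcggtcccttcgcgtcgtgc
Slc25a54, chr3:109080249-109080548, + strand: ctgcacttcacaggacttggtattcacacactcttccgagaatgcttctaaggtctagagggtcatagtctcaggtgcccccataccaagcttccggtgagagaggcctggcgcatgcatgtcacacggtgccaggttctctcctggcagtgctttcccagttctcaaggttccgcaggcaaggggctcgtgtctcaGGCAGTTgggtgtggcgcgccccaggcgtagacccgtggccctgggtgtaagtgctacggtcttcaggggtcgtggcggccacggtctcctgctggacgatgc

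The E2F core began 20 bases after the start in Slc25a31 and 82 bases before it in Slc25a5 (position -82). With 1 promoter taken for each gene, it was present on either strand in 9 of the 34 members with a promoter in the table and in 20.02% of all 27025 promoters. The MYB motif was at position -53 in Slc25a54, the only holder among these promoters of the 34, against 12.9% of all promoters. The cAMP response element TGACGTCA was in 1 of the 34 members and 1.88% of all promoters, and the CCAAT box in 16 of the 34 and 37.9% of all. Promoters left out by taking 1 per gene held the E2F core in Slc25a53 and the cAMP response element in Slc25a25. Others held the CCAAT box in Slc25a22 and Slc25a53. These windows held 22 CpG dinucleotides in Slc25a31, 18 in Slc25a5, 25 in Slc25a4 and 15 in Slc25a54, against a median of 7 over all promoters. A match is a string of letters and says nothing of binding.

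Each group had 1 array of each design, so every comparison below is between 2 arrays of 1 design, with no replicate check and no p-value. Signals were scaled so that the 5 arrays of a design had the same trimmed mean, and the floor was 87.3 on the first design and 47.0 on the second. A signal below the floor was set to it, and the difference is then a lower bound, given as at least so many fold. The error of a log2 difference was estimated from 100 probe sets present on both designs, and was 0.18 for leptotene/zygotene against spermatogonia, 0.21 for pachytene against leptotene/zygotene, 0.24 for pachytene against whole testis and 0.29 for whole testis against somatic mix. The labels do not say whether a group's samples on the 2 designs are separate preparations, so this error may cover the arrays alone. A member is called higher or lower at 2-fold, and "rose" or "fell" is kept for 4-fold. In such mixed samples, fewer cells of a type and less RNA per cell cannot be told apart.

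The fractions were enriched rather than pure. Of 10 pachytene markers, 9 were at least 4-fold higher in the pachytene fraction than in leptotene/zygotene, and the exception was Slc25a31 itself, a member listed among them. Sertoli cell markers summed to 35414 in spermatogonia, 31648 in leptotene/zygotene, 8589 in pachytene, 24268 in whole testis and 4712 in the somatic mix. All 4 Leydig cell markers read and 9 of 9 spermatogonial markers were at least 2-fold lower in pachytene than in leptotene/zygotene. Spermatogonial markers summed to 7782 in spermatogonia and 13223 in leptotene/zygotene, so they were not highest in the fraction named for them. Of 6 spermatid markers, Prm2, Tnp1, Tnp2 and Acrv1 were below the floor in pachytene, and Prm1 and Spaca1 were above it, Spaca1 at 139. In the somatic mix the skin marker Krt14 and the stomach marker Gkn1 were below the floor, while Krt10 of skin (686) and Fabp2, Lgals4 and Vil1 of the gut (10706, 8969 and 1921) were above it.

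The whole testis arrays stood apart. Of the first design's 282 probe sets at 10 times the floor or more in the somatic mix and below it in the 3 fractions, 219 were above the floor in whole testis, with a median of 9.62% of the somatic mix signal. On the second design this held for 28 of 39, with a median of 8.13%. The intestinal fatty acid binding gene Fabp2 read 6887 in whole testis and 10706 in the somatic mix, and the liver gene Apoa1 read 9350 in whole testis and 19657 in the somatic mix. Both were below the floor in the fractions. They are high examples, as the upper quartiles over these probe sets were 17.5% and 15.2%. Organ markers differed in whole testis against the somatic mix. The median log2 difference was -2.16 for liver, -2.03 for gut, -4.88 for heart and muscle, -5.58 for kidney, -1.37 for lung and -0.67 for skin. The brain and spleen markers read were below the floor in whole testis. The part of this organ signal in the members' whole testis values was not tested, so differences from the somatic mix are also given for the fractions.

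Over the whole family, leptotene/zygotene and spermatogonia differed by less than 2-fold in every member measured, and the larger differences involved pachytene or the somatic mix. The somatic mix had the highest signal for 21 of 43 members (48.8%, against 32.8% of all genes above the floor), pachytene for 8 (18.6%, against 24.9% of all genes). The heat map of all members shows this.

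**Figure D1:**
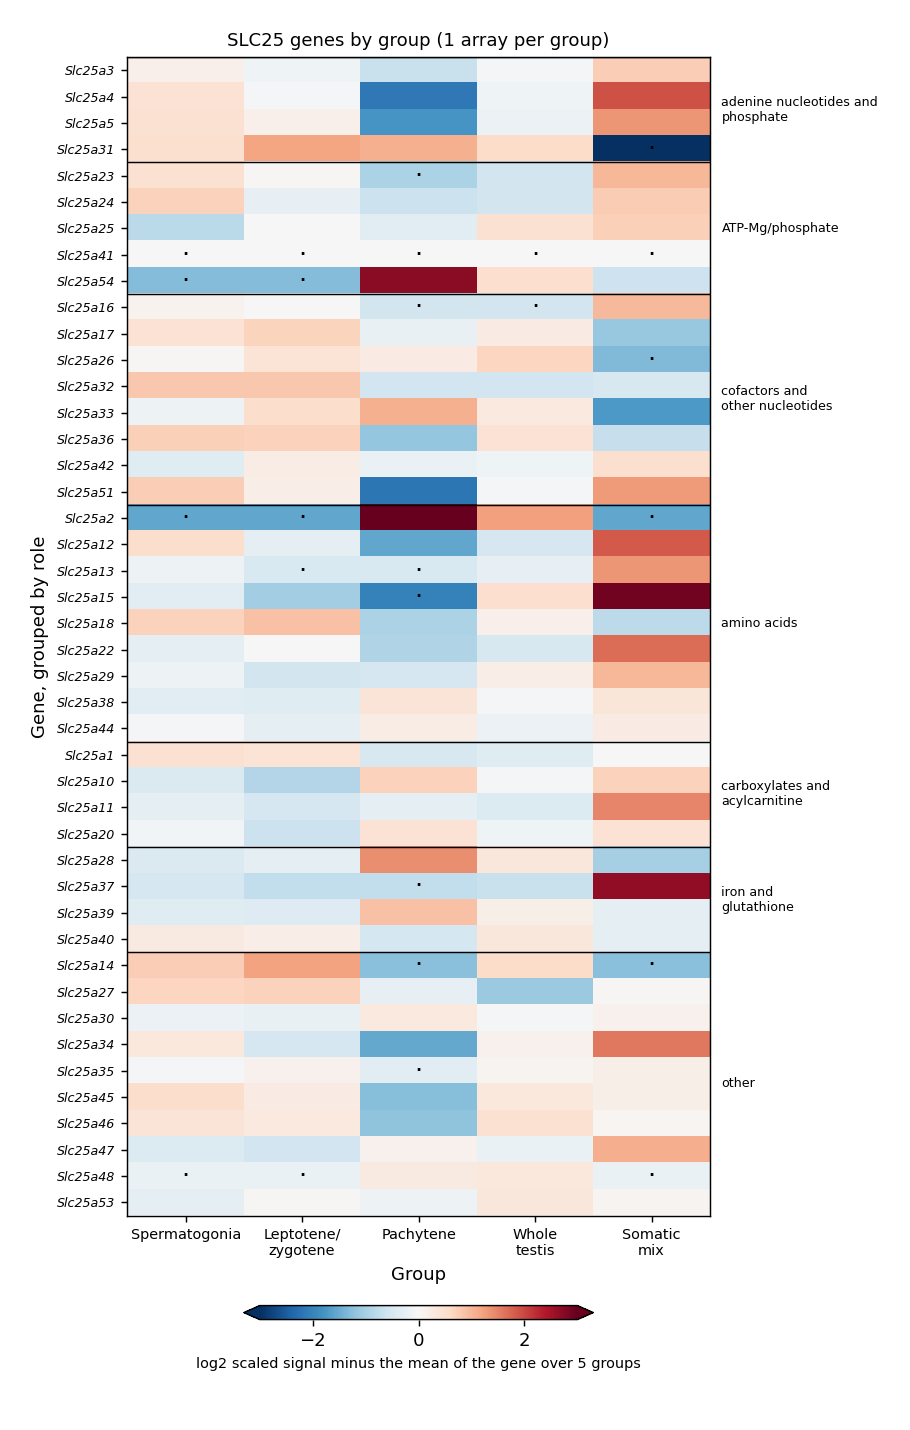
Scaled log2 signal of the 44 SLC25 genes (rows, grouped by role) in the 5 groups (columns, 1 array each), minus each gene's mean over the groups. Red is above and blue below that mean, colours are cut at 3 on either side, and a dot marks a signal below the floor. The darkest blue cell is Slc25a31 in the somatic mix, and the darkest red ones are Slc25a2 in pachytene and Slc25a15 in the somatic mix.

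Between leptotene/zygotene and spermatogonia, no member passed 2-fold, with 0 of 40 higher (3.41% of all genes) and 0 of 40 lower (4.78% of all genes). At 4-fold the shares of all genes were 0.310% and 0.279%. Members' median log2 difference was -0.09, against 0.02 over all genes tested. The largest differences were 0.79 for Slc25a25 and 0.71 for Slc25a31 on the higher side, and -0.93 for Slc25a24 and -0.83 for Slc25a34 on the lower side. These exceed the 95% limit of 0.35 set by the error between designs, but they were picked as the largest of 40. The limit is also 1 value for all signal levels, while Slc25a25 read 94.2 in spermatogonia, near the floor of 87.3. The limit leaves out differences between probe sets of a gene, which spanned -0.81 to 0.44 in Slc25a12 and 0.66 to 0.79 in Slc25a25. The smallest differences of members were those of Slc25a39 at -0.01, Slc25a32 at 0.01 and Slc25a38 at -0.02.

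Between pachytene and leptotene/zygotene, 6 of 42 members were at least 2-fold higher (14.3%, against 18.0% of all genes). At least 2-fold lower were 11 of 42, near the 27.7% of all genes. At 4-fold, 2 members rose, Slc25a2 and Slc25a54 (8.70% of all genes rose), and 3 fell, Slc25a14, Slc25a51 and Slc25a4 (9.33% of all genes fell). The members' median log2 difference was -0.45, against -0.22 over all genes. Neither share at 2-fold exceeded that of all genes. The members called at 2-fold had 22 further probe sets measured here, and 22 of 22 had the direction of the one read, 17 of them also at 2-fold. Among members not called, the probe sets of Slc25a25, Slc25a26, Slc25a29, Slc25a30 and Slc25a44 differed in sign. With the arrays scaled to their medians, 8 members were higher and 8 lower, and the same counts came from scaling to the probe sets shared by both designs. The shares of all genes above are for the main scaling and do not apply to these counts. The median of all genes above the floor in both groups moved up by 0.30 and 0.36. Calls that ended under another scaling were those of Slc25a12, Slc25a32, Slc25a34 and Slc25a45 on the lower side and of Slc25a20 (0.73 with values as deposited) and Slc25a39 (0.92) on the higher side. The mean over its probe sets, with a set below the floor in every group among them, gave -0.11 for Slc25a32. Its 2 measured sets gave -1.38 and -1.44.

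Markers of other cells moved in the same comparison. Their median log2 difference in pachytene against leptotene/zygotene was -2.45 for 10 Sertoli cell genes, -2.72 for 4 Leydig cell genes, -2.67 for 9 spermatogonial genes and -0.95 for 6 peritubular and stromal genes. It was 1.14 for 3 macrophage and blood genes. The part of these cells in the members' lower values was not tested.

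**Figure D2:**
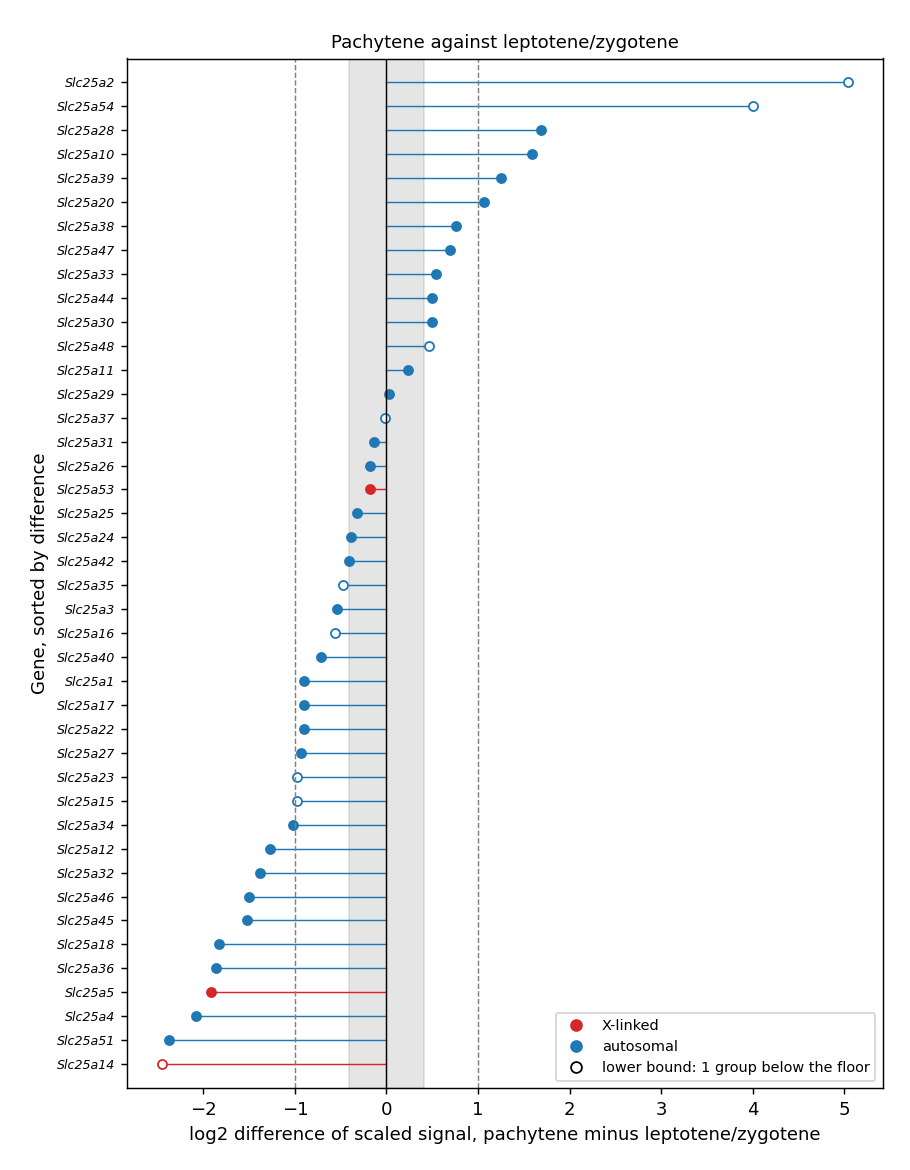
Log2 difference of scaled signal, pachytene minus leptotene/zygotene, for the 42 members measured, sorted, with 1 array per group. Dashed lines mark 2-fold, the grey band the 95% limit of the error between designs (0.41), open circles lower bounds, and red the 3 X-linked members. Slc25a2 and Slc25a54 lie far to the right, and Slc25a14, Slc25a51, Slc25a4 and Slc25a5 at the left end.

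The ADP/ATP carriers differed among themselves. Slc25a4 read 5349.6 in spermatogonia, 3792 in leptotene/zygotene, 897 in pachytene, 3603 in whole testis and 15033 in the somatic mix. Slc25a5 read 5100.1 in spermatogonia, 4150.4 in leptotene/zygotene, 1098 in pachytene, 3274 in whole testis and 9362 in the somatic mix. For both carriers pachytene was the lowest group and the somatic mix the highest. Slc25a31 read 641 in spermatogonia, 1048 in leptotene/zygotene, 954 in pachytene, 669.8 in whole testis and 11.6, below the floor, in the somatic mix. It was above the floor in all 4 testis samples and below it in the pooled somatic tissues.

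Slc25a4 fell 4.23-fold in pachytene against leptotene/zygotene (log2 difference -2.08), and Slc25a5 was 3.78-fold lower (-1.92), both past the 95% limit of 0.41. The 8 probe sets of Slc25a5 gave differences between -2.43 and -1.15. Of these, 6 carry the suffix x, which marks probes shared with related transcripts, and the 2 others gave -2.03 and -1.15. The 3 probe sets of Slc25a4 above the floor gave -2.30 to -1.84. All 3 carry a letter suffix, which is x for the set read. Slc25a31 differed by -0.13 between pachytene and leptotene/zygotene, within the error, and its sign turned with the scaling, 0.27 with median scaling and -0.75 with quantile normalization. Slc25a31 had 1 probe set, on the second design.

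Against the somatic mix, Slc25a31 was at least 14.2-fold higher in whole testis, and at least 13.6-fold higher in spermatogonia, 22.3-fold in leptotene/zygotene and 20.3-fold in pachytene. By the set read, Slc25a4 fell 4.17-fold in whole testis against the somatic mix. It was 2.81-fold lower in spermatogonia, 3.96-fold in leptotene/zygotene and 16.8-fold in pachytene. Its 3 probe sets above the floor gave log2 differences of -2.06 to -0.64 for whole testis and -1.49 to -0.48 for spermatogonia. They gave -1.99 to -0.97 for leptotene/zygotene and -4.20 to -2.81 for pachytene, so the sizes depend on the probe set. For Slc25a5 the same differences were 2.86-fold lower in whole testis, 1.84-fold in spermatogonia, 2.26-fold in leptotene/zygotene and 8.53-fold in pachytene. The phosphate carrier Slc25a3, which brings in the phosphate used for ATP synthesis, moved less. It read 7653 in spermatogonia, 6302 in leptotene/zygotene, 4340.4 in pachytene, 6649.7 in whole testis and 11537 in the somatic mix, a log2 difference of -0.54 for pachytene against leptotene/zygotene.

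**Figure D3:**
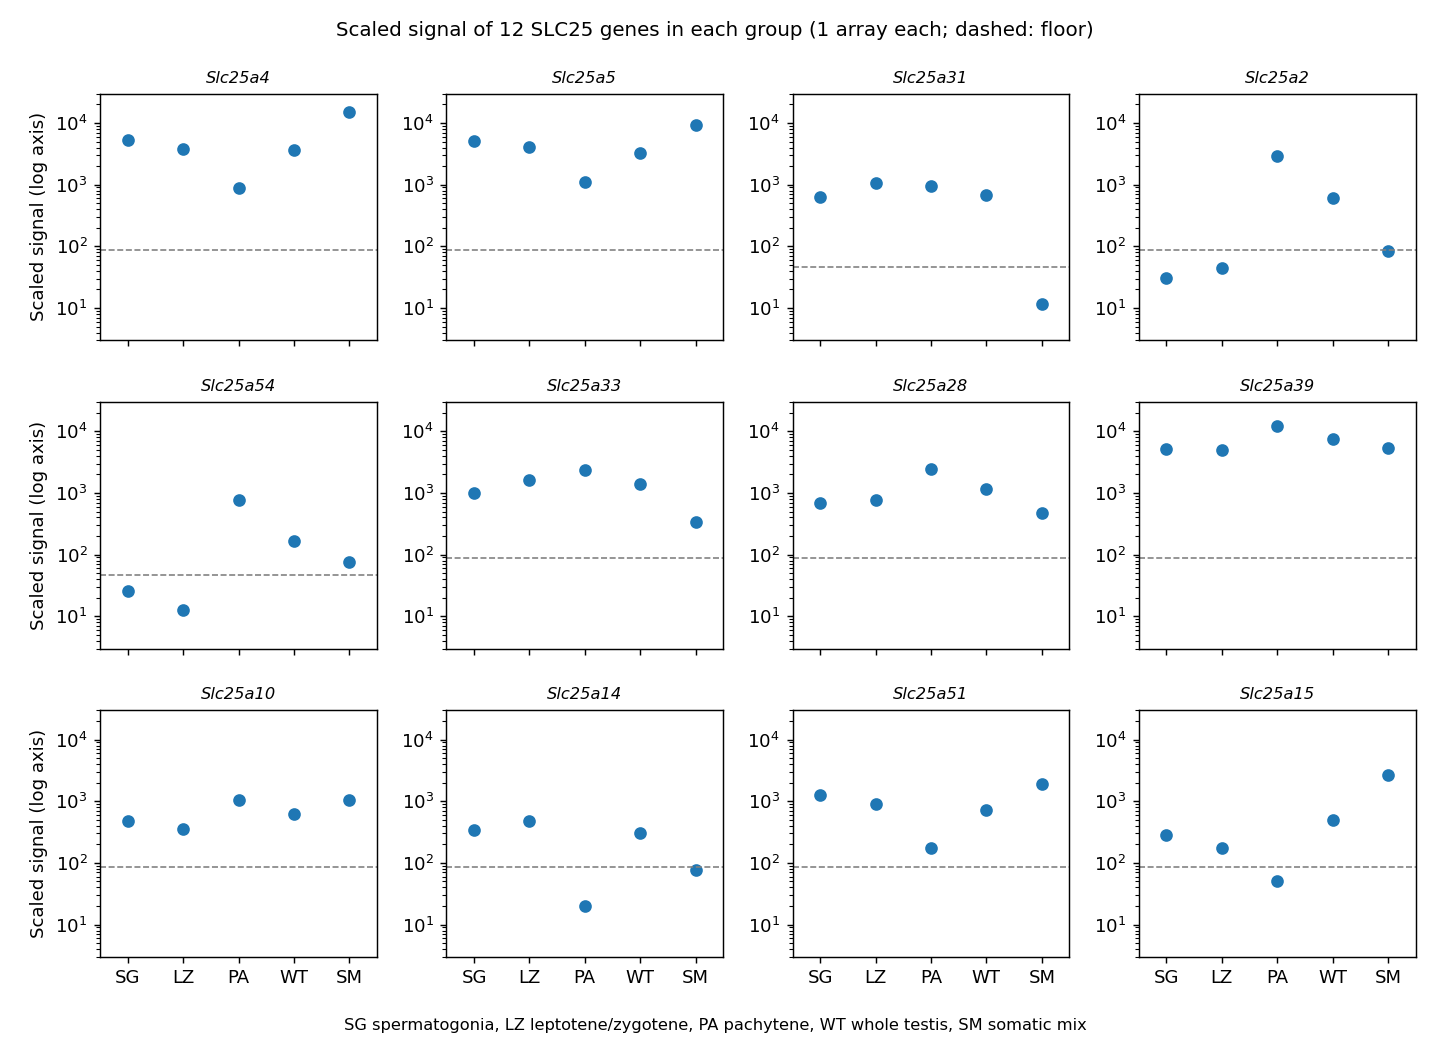
Scaled signal (log axis) of 12 SLC25 genes in the 5 groups, 1 array each, with the floor as a dashed line. Slc25a4 and Slc25a5 dip in pachytene, Slc25a31 is above the floor in the 4 testis samples, between 641 and 1048, and below the floor in the somatic mix, and Slc25a2 and Slc25a54 peak in pachytene.

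Among the carriers of amino acids, Slc25a2 and Slc25a15 both belong to the ornithine carriers, Slc25a15 being the carrier of the urea cycle in liver. They had opposite patterns. Slc25a2 read 30.8 in spermatogonia and 45.0 in leptotene/zygotene, both below the floor, 2883 in pachytene, 610.0 in whole testis and 83.5, just below the floor, in the somatic mix. It rose at least 33.0-fold in pachytene against leptotene/zygotene, and rose 2.24 on the log2 scale against whole testis. In whole testis it was at least 6.99-fold higher than in the somatic mix, and in pachytene at least 33.0-fold. Its level in whole testis was between those of pachytene and the other fractions.

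Slc25a15 read 285 in spermatogonia, 172 in leptotene/zygotene, 50.9, below the floor, in pachytene, 504 in whole testis and 2670.0 in the somatic mix. It fell at least 5.77-fold in pachytene against whole testis, and by 2.41 on the log2 scale in whole testis against the somatic mix. Whole testis stood above all 3 fractions for this liver-rich gene, at 18.9% of the somatic mix signal, and the part of the organ signal was not tested. In spermatogonia, leptotene/zygotene and pachytene it was lower than in the somatic mix by 3.23, 3.96 and at least 4.94 on the log2 scale. Its other probe set read 98.6 in the somatic mix, near the floor, and was below the floor in every testis sample. That set gave only a bound of at least 0.18 lower, so these sizes rest on the set read.

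The aspartate/glutamate carrier Slc25a12, part of the malate-aspartate shuttle, read 321 in spermatogonia, 183 in leptotene/zygotene, 76.1 in pachytene, 157 in whole testis and 797 in the somatic mix. Its probe sets disagreed on whole testis against the somatic mix. The set read gave -2.34 and another gave 1.18, and the mean over its sets was -0.41. For the set read, spermatogonia, leptotene/zygotene and pachytene differed from the somatic mix by -1.31, -2.12 and -3.39. The glutamate carrier Slc25a22 read 170.3 in spermatogonia, 205 in leptotene/zygotene, 109.5 in pachytene, 147 in whole testis and 664 in the somatic mix. It fell by 2.17 on the log2 scale in whole testis against the somatic mix and was lower by 1.96, 1.70 and 2.60 in spermatogonia, leptotene/zygotene and pachytene.

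Slc25a18, the other glutamate carrier, was 1.83 lower on the log2 scale in pachytene than in leptotene/zygotene. In whole testis it differed by 0.95 from the somatic mix, in the opposite direction to Slc25a22, and in spermatogonia, leptotene/zygotene and pachytene by 1.49, 1.68 and -0.15. Of the 9 members of the group, 8 were measured in pachytene and leptotene/zygotene, with 1 higher (18.0% of all genes) and 2 lower (27.7%) at 2-fold and a median of -0.44. In whole testis against the somatic mix 1 of 9 was higher (19.2% of all genes) and 4 lower (18.4%). The aspartate/glutamate carrier Slc25a13 was among these 4, at -1.56, and was lower by 1.47 in spermatogonia and by at least 1.77 in leptotene/zygotene and pachytene. The basic amino acid carrier Slc25a29 had 0.03 between pachytene and leptotene/zygotene, the glycine carrier Slc25a38 0.76 and the branched-chain amino acid carrier Slc25a44 0.50. The 3 probe sets of Slc25a44 gave -0.56 to 1.01, so its direction rests on the set read.

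Among the ATP-Mg/phosphate carriers, which exchange adenine nucleotides for phosphate and so set the nucleotide pool of the matrix, Slc25a54 alone was called between pachytene and leptotene/zygotene. It read 25.4 in spermatogonia and 12.7 in leptotene/zygotene, both below the floor, 756 in pachytene, 164 in whole testis and 75.0 in the somatic mix. Pachytene was thus the highest group by far. It rose at least 16.1-fold against leptotene/zygotene and by 2.21 on the log2 scale against whole testis. In the gene table the next protein-coding gene to Slc25a54 is its family member Slc25a24. Slc25a24 read 621 in spermatogonia, 326 in leptotene/zygotene, 249 in pachytene, 265 in whole testis and 653 in the somatic mix, so the neighbours had different orders of groups. Slc25a23 was 1.55 lower and Slc25a24 1.30 lower on the log2 scale in whole testis than in the somatic mix, and Slc25a25 differed by -0.24. In spermatogonia, leptotene/zygotene and pachytene the differences from the somatic mix were -0.56, -0.98 and at least 1.95 downward for Slc25a23, -0.07, -1.004 and -1.39 for Slc25a24, and -1.52, -0.73 and -1.05 for Slc25a25.

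The carriers of cofactors and other nucleotides included members on both sides. Slc25a33, a pyrimidine nucleotide carrier, read 1016 in spermatogonia, 1617 in leptotene/zygotene, 2353 in pachytene, 1381 in whole testis and 339 in the somatic mix. It rose 4.07-fold in whole testis against the somatic mix. Without whole testis, it was 2.99-fold higher in spermatogonia, 4.76-fold in leptotene/zygotene and 6.94-fold in pachytene than in the somatic mix. The other pyrimidine nucleotide carrier, Slc25a36, went the other way in pachytene. It read 2212 in spermatogonia, 2178 in leptotene/zygotene, 599 in pachytene, 1804 in whole testis and 826 in the somatic mix, a log2 difference of -1.86 for pachytene against leptotene/zygotene.

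Slc25a51, the carrier of mitochondrial NAD+, read 1279 in spermatogonia, 889 in leptotene/zygotene, 172 in pachytene, 734 in whole testis and 1869 in the somatic mix. It fell 5.18-fold in pachytene against leptotene/zygotene and 4.27-fold against whole testis. Its 3 probe sets gave -2.37 to -0.46 on the log2 scale for the first of these, so the size rests on the set read. The S-adenosylmethionine carrier Slc25a26 was at least 3.91-fold higher in whole testis than in the somatic mix, and at least 2.54-fold in spermatogonia, 3.33-fold in leptotene/zygotene and 2.94-fold in pachytene. Its other probe set, above the floor in every group, gave only 0.34 on the log2 scale for whole testis, and 0.16, 0.08 and 0.74 for spermatogonia, leptotene/zygotene and pachytene, so that difference rests on the set read. The peroxisomal carrier Slc25a17 was 1.38 higher on the log2 scale in whole testis, and 1.57, 1.81 and 0.91 higher in spermatogonia, leptotene/zygotene and pachytene. The folate carrier Slc25a32 was 1.38 lower in pachytene than in leptotene/zygotene, and the coenzyme A carrier Slc25a42 differed by -0.41. Of the 8 members of this group, 4 were higher (19.2% of all genes) and 2 lower (18.4%) in whole testis than in the somatic mix, at 2-fold. In spermatogonia (17.3% of all genes) and in leptotene/zygotene (20.1%) 5 of 8 were higher, and in pachytene 2 of 8 (22.4%).

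The iron and glutathione carriers were 4 genes. Slc25a28, mitoferrin 2, which carries iron in most cells, read 684 in spermatogonia, 755 in leptotene/zygotene, 2440.1 in pachytene, 1171 in whole testis and 466 in the somatic mix. It was 3.23-fold higher in pachytene than in leptotene/zygotene, and 2.08-fold higher than in whole testis. Slc25a37, mitoferrin 1, the carrier of erythroid cells, read 103 in spermatogonia, 88.5 in leptotene/zygotene, 27.6, below the floor, in pachytene, 91.8 in whole testis and 927 in the somatic mix. It was near the floor in every testis sample. It fell by 3.34 on the log2 scale in whole testis against the somatic mix, and was lower by 3.17 in spermatogonia, 3.39 in leptotene/zygotene and at least 3.41 in pachytene.

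Slc25a39, which imports glutathione, read 5093 in spermatogonia, 5056 in leptotene/zygotene, 12080.1 in pachytene, 7427 in whole testis and 5336 in the somatic mix. It was 2.39-fold higher in pachytene than in leptotene/zygotene, and its 4 probe sets above the floor gave log2 differences of 1.18 to 2.10. The set read for Slc25a39 carries the suffix x. The paralog Slc25a40 differed by -0.71. Of these 4 genes, 2 were at least 2-fold higher in pachytene than in leptotene/zygotene (18.0% of all genes) and 0 lower (27.7%). The 2 higher ones came 1 from each pair of paralogs, Slc25a28 with Slc25a37 and Slc25a39 with Slc25a40. The difference of Slc25a37 could not be measured here, as it read 88.5 in leptotene/zygotene, at the floor, and was below the floor in pachytene.

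Of the 4 carriers of carboxylates and acylcarnitine, 2 were at least 2-fold higher in pachytene than in leptotene/zygotene (18.0% of all genes). The dicarboxylate carrier Slc25a10 read 473 in spermatogonia, 348 in leptotene/zygotene, 1045 in pachytene, 616 in whole testis and 1035 in the somatic mix. Its log2 difference was 1.59, and its other probe set gave 0.46. The carnitine/acylcarnitine carrier Slc25a20, which brings fatty acids in for oxidation, read 816 in spermatogonia, 551 in leptotene/zygotene, 1154 in pachytene, 785 in whole testis and 1158 in the somatic mix. Its 2 probe sets gave 1.07 and 1.20. By the sets read, pachytene and the somatic mix were nearly equal for both, with a log2 difference of 0.01 for Slc25a10, whose other set gave -1.60. The citrate carrier Slc25a1 differed by -0.90 and the oxoglutarate carrier Slc25a11 by 0.24 between pachytene and leptotene/zygotene. Slc25a11 was 1.87 lower on the log2 scale in whole testis than in the somatic mix, and 1.72, 1.96 and 1.72 lower in spermatogonia, leptotene/zygotene and pachytene.

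Of the 10 other members, 0 were higher (18.0% of all genes) and 4 lower (27.7%) at 2-fold in pachytene against leptotene/zygotene. Slc25a14, a relative of the uncoupling proteins, read 345 in spermatogonia, 479 in leptotene/zygotene, 19.7, below the floor, in pachytene, 305 in whole testis and 76.5, below the floor, in the somatic mix. It fell at least 5.48-fold in pachytene. It was at least 3.50-fold higher in whole testis than in the somatic mix, and at least 3.95-fold in spermatogonia and 5.48-fold in leptotene/zygotene. Slc25a45 was 1.52 lower, Slc25a46, an outer membrane protein with a part in mitochondrial shape, 1.50 lower, and Slc25a34 1.02 lower on the log2 scale in pachytene. The other members of this group, Slc25a27, Slc25a30, Slc25a35, Slc25a47, Slc25a48 and Slc25a53, had values between -0.94 and 0.69.

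The 3 X-linked members were Slc25a5, Slc25a14 and Slc25a53. In pachytene against leptotene/zygotene Slc25a5 differed by -1.92 on the log2 scale, Slc25a53 by -0.18, and Slc25a14 fell by at least 2.45. All X-linked genes tested, 438, had a median of -1.62 and 66.0% were at least 2-fold lower. The 39 autosomal members had a median of -0.41, with 6 higher and 9 lower, against a median of -0.18 and 26.4% lower over all 13052 autosomal genes. Slc25a4, Slc25a51 and Slc25a36 are autosomal, so lower signals in pachytene were not limited to the X. The X-linked Slc25a53 was near the floor on the first design, with 121 in pachytene and 138 in leptotene/zygotene. Its second-design probe set read 12.6, below the floor, in pachytene and 86.9 in leptotene/zygotene.

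Between pachytene and whole testis, 3 of 42 members were at least 2-fold higher, Slc25a2, Slc25a54 and Slc25a28, against 12.7% of all genes. A further 11 were at least 2-fold lower, against 20.5% of all genes. At 4-fold, 2 members rose (2.35% of all genes) and 3 fell, Slc25a15, Slc25a51 and Slc25a4 (4.39% of all genes). The members' median log2 difference was -0.30, against -0.18 over all genes. This comparison shares the pachytene array with the one above and the whole testis array with the one below. With median scaling 7 members were higher and 9 lower, counts to which the shares of all genes above, from the main scaling, do not apply. The call of Slc25a28 ended with quantile normalization, at 0.90, and those of Slc25a12, Slc25a18 and Slc25a34 with values as deposited. Those of Slc25a5, at -0.73, and Slc25a36 ended when probe sets with a letter suffix were left out, and that of Slc25a14 with a higher floor.

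Between whole testis and the somatic mix, 9 of 43 members were at least 2-fold higher, near the 19.2% of all genes, and 15 of 43 were lower by as much, above the 18.4% of all genes. At 4-fold, 3 members rose, Slc25a31, Slc25a2 and Slc25a33 (7.22% of all genes), and 5 fell, Slc25a37, Slc25a15, Slc25a12, Slc25a22 and Slc25a4 (5.70% of all genes). The members' median log2 difference was -0.42, against -0.07 over all genes. With each fraction in place of whole testis, 8 of 41 members were higher and 12 lower in spermatogonia (17.3% and 17.4% of all genes), 8 of 41 higher and 15 lower in leptotene/zygotene (20.1% and 19.1%), and 7 of 42 higher and 18 lower in pachytene (22.4% and 31.2%). In each fraction too, the members' share of lower calls was above that of all genes, a difference with no test. Of 18 other probe sets of the members called, 16 had the same direction and 8 were also past 2-fold. Those of opposite direction were a set of Slc25a12, at 1.18, and a set of Slc25a27, at 0.29 against -1.14 for the set read. With the floor at the 60th percentile the calls of Slc25a13, Slc25a14, Slc25a17, Slc25a23, Slc25a26 and Slc25a47 ended, and with values as deposited those of Slc25a16, Slc25a24 and Slc25a27. With the mean over probe sets, those of Slc25a12, Slc25a17, Slc25a36 and Slc25a51 ended. With the floor added to each signal before the log, Slc25a54 differed by 0.79.

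**Figure D4:**
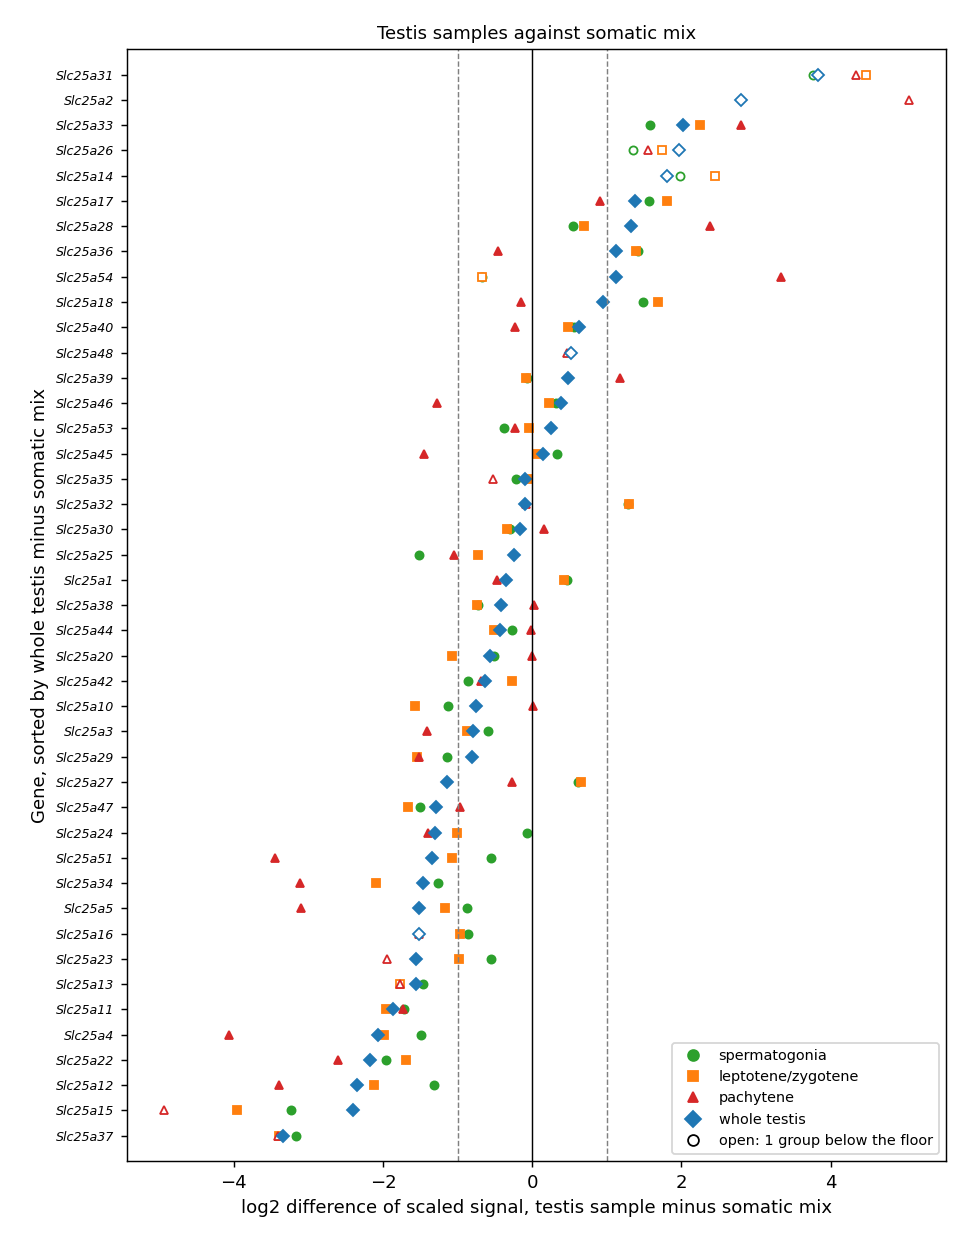
Log2 difference of scaled signal from the somatic mix for spermatogonia, leptotene/zygotene, pachytene and whole testis, for the 43 members measured, sorted by whole testis, 1 array each. Dashed lines mark 2-fold, and open symbols lower bounds. Slc25a31 is to the right in all 4 testis samples, Slc25a37 and Slc25a15 are to the left in all 4, and pachytene lies furthest left for Slc25a4, Slc25a5, Slc25a51 and Slc25a34.

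Genes that work with the carriers were read for context, from lists. Of 12 proteins that pass carriers through the outer membrane and into the inner one, 2 were at least 2-fold higher in pachytene than in leptotene/zygotene, Tomm22 (log2 difference 1.55) and Timm8b (1.43), and 3 lower, Timm8a1 (-2.14), Timm29 (-1.55) and Tomm40 (-1.13). Their median was -0.23, against -0.22 over all genes, of which 18.0% were higher and 27.7% lower. Of 13 other mitochondrial transporters read, 2 were higher, Vdac2 (1.40) and Abcb8 (1.23), and 5 lower, among them the outer membrane channel Vdac1 (-2.74) and the serine carrier Sfxn1 (-1.97). Their median was -0.81, beside the same -0.22 and shares over all genes. Of the carrier-fold genes with other names, Mtch1 fell by 2.08 and Mtch2 was 1.50 higher on the log2 scale. The uncoupling protein of brown fat, Ucp1, was below the floor in all 4 testis samples and read 746 in the somatic mix.

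Slc25a5 and Slc25a31 were set beside 5 other pairs of a somatic gene and its germ cell paralog. The X-linked Pgk1 fell by 2.53 in pachytene against leptotene/zygotene on the log2 scale, and its paralog Pgk2 rose by at least 4.87. Pdha2 rose by 3.62, Ldhc by 3.66, Cyct by 2.10 and Cox6b2 by 3.10, against -0.97 for Pdha1, 2.78 for Ldha, -1.97 for Cycs and -1.53 for Cox6b1. Slc25a31, at -0.13, was the only germ cell paralog of the 6 pairs not past 4-fold there, and it read 641 in spermatogonia. In spermatogonia Pgk2, Pdha2 and Ldhc were below the floor, and Cox6b2 (846) and Cyct (178) were above it, as Slc25a31 was. The pairs were chosen with results of these arrays known, so their direction is not independent evidence. In all 6 pairs the germ cell paralog was at least 4-fold higher in whole testis than in the somatic mix (7.22% of all genes).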

How the data were processed

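RNA from 5 groups was hybridised as biotin-labelled cRNA, made with the MessageAmp aRNA kit per the labels' protocols, to 2 Affymetrix mouse designs. The authors deposited linear signal intensities per probe set from GCOS 1, per the submitters' processing notes. The sources used here do not give the scaling target, the background step or detection calls. Samples numbered 1 are on the first design (22690 probe sets) and samples numbered 2 on the second (22575), so a group has 1 array per design. Deposited trimmed means were 383 to 484 on the first design and 63.4 to 148 on the second, and 55.5% to 64.2% and 42.7% to 56.0% of probe sets were above the floor.

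Arrays of a design were brought to 1 common trimmed mean, with 2% of signals trimmed. On the first design the floor was the 90th percentile over 71 probe sets of chemosensory receptors. Fewer than the required 20 such sets, 15, were on the second, whose floor was therefore its median scaled signal. A gene was read from its probe set of highest mean log2 signal, the first design preferred. Symbols come from the platform annotation; 3 symbols of the family in the gene table (GRCm38.p6) were not read, and a probe set naming Slc25a37 with a second gene was left out. The error of a log2 difference comes from 100 probe sets present on both designs. It is the root mean square of their gaps over the square root of 2, and 1.96 errors make the 95% limit. Scripts used Python 3.11.15, numpy 2.4.6, pandas 2.3.3 and scipy 1.17.1, and were tested on simulated data. Members, lists, roles and tests were chosen with earlier results of these data known. Values in every group are given for the ADP/ATP carriers and for members 4-fold different in any of the 4 comparisons, others by role. Other members and examples were named after their values were seen, and alternatives are in the closing section.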

Additional observations from a re-analysis of the deposited data

How the results depend on the processing

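Alternative settings were other scalings, floors, readings of probe sets and each design alone. Of 141 recomputed counts and medians, 128 kept within 1.5 times of the count or the error of the median and 13 did not. The 141 include counts and medians with each fraction in place of whole testis, which is another comparison and not a processing setting. The 55 member differences past 2-fold were recomputed 542 times, with the same direction in 542 and still past 2-fold in 483. Part of this agreement was fixed in advance, because each design is scaled alone. Without replicate 2, the 39 differences read from the first design repeat the main values. Without replicate 1, those read from the second design do. With quantile normalization, and with median scaling, 1 member was at least 2-fold lower in leptotene/zygotene than in spermatogonia, against 0. The members' median for pachytene against leptotene/zygotene was -0.11 with median scaling and -0.12 with scaling to shared probe sets, where the median of all genes above the floor in both groups moved up by 0.30 and 0.36. Pachytene against whole testis had 7 members higher with median scaling, against 3, and the median of all genes moved up by 0.33. Slc25a31 in pachytene against leptotene/zygotene ranged from -0.75 to 0.39. Leaving out replicate 1 or 2 leaves 1 design, with fewer members. Pachytene against leptotene/zygotene then gave 2 to 5 members higher, 4 to 7 lower and a median of -0.77 to -0.25, pachytene against whole testis 1 to 2 higher and 4 to 8 lower, and whole testis against somatic mix 2 to 7 higher and 5 to 10 lower. With a fraction in place of whole testis, a comparison added after the data were seen, the counts were of the same size. No paired analysis was possible because the samples that share a number are on 1 array design and each group has 1 array per design. The number of arrays limits the precision, and members near the floor have bounds only.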
